A study of Mus musculus with 8 samples.

Results

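The Cxcl12 Tnmd Lepr dermal fibroblasts (FBs) were the cells of mouse dorsal skin in which at least 4 of 8 genes, Adamts18, Tnmd, Lepr, Slit2, Cxcl12, Col15a1, Hpgd and Mfap4, were found. They numbered 349 of 26231 barcodes in the files. Barcodes with between 500 and 4000 detected genes, no more than 20000 UMIs (unique molecular identifiers, 1 for each captured RNA molecule) and no more than 10% of UMIs from mitochondrial genes were kept, which left 11118. A pool of 2003 FBs was taken from these, in which Col1a1, Col1a2 and Col3a1 made up at least 1% of the UMIs, Ptprc was at 0 and Rgs5 was under 3 UMIs. Of the pool, 635 cells held a UMI of at least 4 of the 8 genes, and those that held as many or more genes of a Pi16 Dpp4 list (52 cells) or of a Mgp Angptl1 Apod list (190 cells), or at least 2 of the hair follicle FB genes Ednrb, Wif1, Col11a1 and Crabp1 (87 cells), were left out, some for more than 1 reason. The remaining 349 made up 17.4% of the pool and 3.14% of the kept barcodes. The mirrored rule gave 881 Pi16 Dpp4 FBs and 399 Mgp Angptl1 Apod FBs, which serve for comparison, and 374 cells of the pool fell into none of the 3 groups.

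Dermal FBs build the collagen and elastic fibre network of the skin and differ in gene expression by depth and by neighbourhood. Cxcl12 is a chemokine that holds and attracts leukocytes and progenitor cells through the receptor Cxcr4. Lepr is the receptor of leptin, Tnmd (tenomodulin) is a membrane protein best known from tendon, Slit2 is a guidance ligand of the Robo receptors, Hpgd degrades prostaglandins, Adamts18 is a secreted metalloproteinase, Col15a1 is a basement membrane collagen and Mfap4 is a protein of elastic microfibrils.

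The skin came from female BALB/c mice aged 14 to 16 weeks that had been injected subcutaneously with PBMCsec, the secretome of irradiated human peripheral blood mononuclear cells, or with a vehicle, 4 samples each, and each sample gave 1 droplet-based 3' library from 4 mm biopsies. The labels give the treatment and a library number, but neither wounding nor time point nor the control solution, so libraries were compared by treatment alone. The paper's methods describe injection of formed scars with PBMCsec, NaCl or medium and analysis at 2 end points, while the title of the series names mast cells and basophils, so whether these libraries are from that experiment, and whether a group pools controls or end points, cannot be told from the labels. Nothing in the labels states that each library is a separate mouse, and p-values measure the spread between these libraries. PBMCsec libraries 1 to 4 held 27786595, 18578561, 33908551 and 37880651 UMIs, and vehicle libraries 1 to 4 held 14753926, 16460623, 33333619 and 30494307. Of the 26153 distinct barcode sequences, 78 occurred in 2 libraries and none in more, with at most 10 between any 2 libraries, and no barcode of the 349 cells occurred in a second library.

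The genes in the name were found in these cells to different degrees. Cxcl12 was detected in 89.7% of the 349 cells, Tnmd in 56.2% and Lepr in 41.0%, and 69 cells (19.8%) held all 3, while 87 cells (24.9%) held neither Tnmd nor Lepr. The name therefore describes the group better than it describes every cell. Slit2 (92.3%), Col15a1 (91.4%) and Mfap4 (85.4%) were found in most cells, Hpgd in 67.9% and Adamts18 in 33.5%. These shares describe how the cells were chosen and were not tested. Each cell held at least 4 of the 8 genes by the rule, with 70 cells at 4, 108 at 5, 98 at 6, 47 at 7 and 26 at 8. The 8 genes formed 68 combinations, and the most frequent, found in 38 cells, was Tnmd, Slit2, Cxcl12, Col15a1, Hpgd and Mfap4.

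For background, the same genes were counted in 2201 cells with at least 1% keratin UMIs, at a median of 9730 UMIs per cell, and in 2142 Ptprc-positive cells, at a median of 3837. The 349 FBs had a median of 7635. Adamts18 was found in 0.273% and 0.187% of these cells, Tnmd in 0.136% and 0.0934%, and Lepr in 0.0454% and 0.467%, so these genes were close to absent there. Cxcl12 was found in 35.8% of the keratin-high cells and in 3.17% of the Ptprc-positive cells, and Hpgd in 11.4% and 1.45%. Cxcl12 was also found in 83.5% of Mgp Angptl1 Apod FBs and 67.1% of Pi16 Dpp4 FBs, so that its detection separated the FB groups least among the 8 genes. Intervals of these shares are exact Clopper-Pearson intervals at 95% and, like all intervals and floors here, cover counting error only.

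**Figure D1:**
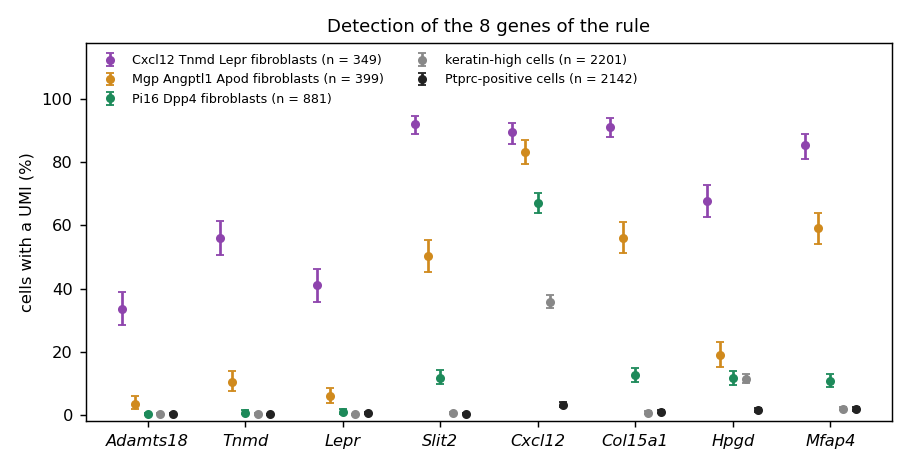
Share of cells with at least 1 UMI (y axis, %) of each of the 8 genes of the rule (x axis), in the 349 Cxcl12 Tnmd Lepr FBs, the other FB groups, keratin-high cells and Ptprc-positive cells of all libraries together. Points are shares and bars exact 95% binomial intervals. Adamts18, Tnmd and Lepr stand at 33.5% to 56.2% in the Cxcl12 Tnmd Lepr FBs and at 10.3% or less elsewhere, and Cxcl12 is spread over all 3 FB groups.

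The genes were not found evenly together. Of the 117 cells with Adamts18, 86.3% also held Hpgd, against 58.6% of the 232 cells without Adamts18, and 54.7% against 34.1% held Lepr. Mfap4 went the other way, with 74.4% of the cells with Adamts18 and 90.9% of those without. Cells with Tnmd held Mfap4 more often (91.8%) than cells without it (77.1%), and Hpgd as often (67.9% and 68.0%). The rule required a minimum number of the 8 genes, which ties their detection to each other, and these shares are a description of the chosen cells. At the edge of the rule, the 24 cells with 3 of the genes that would otherwise have been chosen held Cxcl12 in 58.3%, Mfap4 in 79.2% and Tnmd in none, and the 70 cells with 4 genes held Cxcl12 in 70%, Mfap4 in 80% and Tnmd in 22.9%. The 24 cells outside had a median of 4862 UMIs and the 70 inside 5842, against 8029 in the 279 cells with 5 or more genes, so depth moved with the number of genes found, and its part in the choice was not tested beyond the thinned counts given with the shares.

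The 8 genes lie on several chromosomes of GRCm38 (GENCODE M21). Cxcl12 spans chr6:117168535-117181367, Tnmd chrX:133850980-133865577, Slit2 chr5:47983138-48307733 and Mfap4 chr11:61485431-61488900, all on the plus strand. Lepr (chr4:101717404-101815352) and Col15a1 (chr4:47208161-47313167) share chromosome 4, and Hpgd (chr8:56294585-56321043) and Adamts18 (chr8:113697126-113848738, minus strand) share chromosome 8. The 300 bases around the transcription start are shown for Cxcl12, the gene of the rule found in the most cell groups, and for Tnmd, found in 10.3% or less of every other group, both from RefSeq on GRCm38.p6 and on the plus strand (chr6:117168285-117168584 and chrX:133850758-133851057). Capitals mark the GC box letters GGGCGG on either strand, with overlapping matches counted.

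Cxcl12: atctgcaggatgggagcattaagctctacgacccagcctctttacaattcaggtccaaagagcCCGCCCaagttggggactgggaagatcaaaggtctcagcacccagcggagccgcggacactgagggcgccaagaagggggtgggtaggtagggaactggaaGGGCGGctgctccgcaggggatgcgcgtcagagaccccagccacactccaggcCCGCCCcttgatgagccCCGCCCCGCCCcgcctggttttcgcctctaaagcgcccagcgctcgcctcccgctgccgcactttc

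Tnmd: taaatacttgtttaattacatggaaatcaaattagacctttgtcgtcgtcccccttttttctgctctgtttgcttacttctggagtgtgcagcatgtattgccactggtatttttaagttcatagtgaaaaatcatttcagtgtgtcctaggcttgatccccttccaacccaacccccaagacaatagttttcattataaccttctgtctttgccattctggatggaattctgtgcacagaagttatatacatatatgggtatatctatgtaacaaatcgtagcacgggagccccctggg

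The Cxcl12 window holds 5 GC boxes, 20 CpG and 64.7% G or C, and the Tnmd window holds no GC box, 4 CpG and 40% G or C. Of 32851 promoters of this length, 35.7% hold a GC box and the median number of CpG is 7. Neither window holds the letters TATAAA, which 13.6% of promoters hold. These counts describe the letters in the windows and say nothing of which factors act there.

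The level of the 8 genes was read from counts summed over the cells of each library and scaled to the same library total (CPM), leaving out the UMIs of 3 genes that the study removed. Libraries with at least 10 of the cells were used, which were PBMCsec libraries 1, 3 and 4 with 25, 103 and 32 cells and vehicle libraries 3 and 4 with 139 and 40 cells. Together they held 339 of the 349 cells. Cxcl12 stood at 2899, 1685 and 1671 CPM in PBMCsec libraries 1, 3 and 4 and at 3158 and 3178 CPM in vehicle libraries 3 and 4, beside a median over these libraries of 260.2 CPM in Pi16 Dpp4 FBs and 596 CPM in Mgp Angptl1 Apod FBs. PBMCsec library 1 lay near the vehicle libraries, and PBMCsec libraries 3 and 4 lay well under them. Mfap4 stood at 1756, 4629 and 2696 CPM and at 2331 and 3762 CPM, so the lowest and the highest library were both PBMCsec. Lepr was highest in vehicle library 3 (244.7 CPM) and lay between 61.1 and 134.3 CPM in the other libraries. Tnmd was highest in PBMCsec library 3 (320.9 CPM) and lay between 144.6 and 226.3 CPM elsewhere. The spread of Adamts18 was similar, from 95.6 CPM in PBMCsec library 3 to 269.9 CPM in PBMCsec library 4, with vehicle library 3 at 262.0 CPM. Slit2 varied least, between 491.6 and 673.7 CPM.

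Genes of the lists that the cells had to score lower on were also detected in them. Pi16 was detected in 86.0% of them and stood between 1475 and 2032 CPM, against a median of 4214 CPM in Pi16 Dpp4 FBs and 1300 CPM in Mgp Angptl1 Apod FBs. Apod, a secreted lipid carrier, was detected in 84.2% and Igf1, a growth factor, in 72.5%, while Mgp, an inhibitor of calcification, was detected in 12.3% and Dpp4, a membrane peptidase that cleaves Cxcl12, in 28.9%. In keratin-high and Ptprc-positive cells, Pi16 was detected in 3.82% and 7.52%, Dpp4 in 4.95% and 8.82%, Mgp in 3.04% and 0.887%, Apod in 0.818% and 2.99% and Igf1 in 0.454% and 5.65%. Of the 349 cells, 105 held 1 of the hair follicle FB genes, with Wif1, an inhibitor of Wnt ligands, in 13.2% of the cells, against 0.114% of Pi16 Dpp4 FBs and 0.501% of Mgp Angptl1 Apod FBs. These levels and shares, too, are bounded by the rule.

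The first comparison asked whether the share of these cells differed between PBMCsec and vehicle. It did not differ beyond the spread between libraries. Of the FB pool, the cells made up 14.3% (25 of 175), 4.55% (4 of 88), 20.4% (103 of 505) and 10.7% (32 of 299) in PBMCsec libraries 1 to 4. In vehicle libraries 1 to 4 they made up 0 of 57, where a floor of 3 counts allows a share of up to 5.26% and the exact 95% interval reaches 6.27%, 15% (6 of 40), 28.8% (139 of 483) and 11.2% (40 of 356). The groups overlapped fully, and the libraries numbered 3 held the highest share in both groups and 69.3% of all 349 cells. PBMCsec libraries averaged 12.5% ± 6.63 and vehicle libraries 13.8% ± 11.9 (SD, n = 4 in each group), so that PBMCsec lay 1.27 percentage points lower (-1.27, exact two-sided permutation p = 0.857, adjusted over 2 shares 0.886). Of all kept barcodes, the cells made up 2.28% ± 1.36 and 2.14% ± 2.01 (SD, n = 4 each, exact permutation p = 0.886). With 4 libraries against 4, the smallest p the test can give is 0.0286. The difference changed sign when cells were thinned to 2000 UMIs (0.249 percentage points), without PBMCsec library 2 (1.37 percentage points) and without vehicle library 3 (3.74 percentage points). Median UMIs per chosen cell were 9243, 7919, 8172 and 9881 in PBMCsec libraries 1 to 4 and 5287, 6021 and 8248 in vehicle libraries 2 to 4, so that the chosen cells held fewest UMIs in vehicle libraries 2 (6 cells) and 3. Vehicle library 2 was not shallow in other cells, with a median of 11652 UMIs in its 22 Pi16 Dpp4 FBs, whereas those of vehicle library 3 held 6604. The part of depth beyond the thinned counts was not tested.

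**Figure D2:**
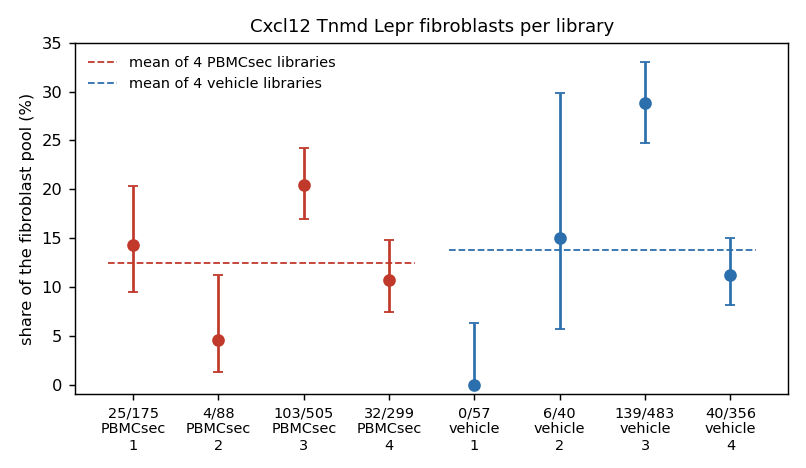
Share of Cxcl12 Tnmd Lepr FBs in the FB pool (y axis, %) in each of the 8 libraries (x axis, with cells of the pool). Points are shares, bars exact 95% binomial intervals, which cover counting error only, and dashed lines the group means of 12.5% and 13.8%. The PBMCsec shares lie between 4.55% and 20.4%, within the range of the vehicle shares.

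Beyond the genes of the rule, the cells were set beside the other FB groups in the 5 libraries, gene by gene, without a test, since the cells were chosen by their own counts. Of 3699 genes with at least 50 CPM in one of the groups, 323 were higher in the Cxcl12 Tnmd Lepr FBs than in both other groups in each of the 5 libraries, 88 of them at least 2-fold and 24 at least 4-fold by the median. Another 268 were lower than both in each library, 87 at least 2-fold and 24 at least 4-fold. For the gene lists below, a gene outside the rule counts as measured with a median of at least 10 CPM in one of the groups, and of all 9009 such genes 6.7% were above both groups in each library and 4.76% under both.

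The genes that stood highest against both other groups included signalling genes. Robo2, a receptor of Slit ligands, stood at 238.8, 193.5 and 167.1 CPM in PBMCsec libraries 1, 3 and 4 and at 231.7 and 167.8 CPM in vehicle libraries 3 and 4, beside a median of 0.763 CPM in Pi16 Dpp4 FBs and 1.80 CPM in Mgp Angptl1 Apod FBs. The level was thus similar in all 5 libraries and near 0 in both of these groups. The 374 unassigned cells of the pool and the hair follicle FBs were not compared. Cyp26b1, which degrades retinoic acid, lay between 335.6 and 606.6 CPM, beside medians of 0.571 and 40.9 CPM. Coch, which codes for the matrix protein cochlin, varied more, from 28.9 CPM in PBMCsec library 4 to 194.6 CPM in PBMCsec library 3, and its median was 0 in both other groups. Dkk2, a secreted modulator of Wnt signalling, had a median of 262.0 CPM, beside 12.7 and 19.8 CPM.

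Further genes of this kind were Penk, the precursor of enkephalins (median 192.0 CPM, beside 3.42 and 21.7 CPM), the transcription factors Bcl11b (158.1 CPM, beside 1.14 and 10.3 CPM) and Trps1 (138.6 CPM, beside 2.12 and 11.8 CPM), and Inhbb, a subunit of activins (83.4 CPM, beside 0.763 and 6.50 CPM). Ptgfr, the receptor of prostaglandin F, had a median of 115.7 CPM, beside 2.71 and 13.003 CPM, and Aqp1, a water channel, 107.7 CPM, beside 0.763 and 17.6 CPM. Egflam, Aldh3a1, Cyp4b1 and Sema3g were also among the 15 genes with the largest ratio, with medians between 55.9 and 101.8 CPM in the chosen cells and at most 14.4 CPM in the others.

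The genes that stood lowest included several that are abundant in other FBs. Sfrp2, a secreted Wnt modulator, was at 4.68, 6.83 and 6.43 CPM in PBMCsec libraries 1, 3 and 4 and at 12.99 and 31.1 CPM in vehicle libraries 3 and 4, beside medians of 720.8 CPM in Pi16 Dpp4 FBs and 918.4 CPM in Mgp Angptl1 Apod FBs. Every library was thus far under the other FBs. The related Sfrp4 (median 24.9 CPM, beside 708.6 and 754.7 CPM), Plac8 (4.33 CPM, beside 635.1 and 365.9 CPM) and the matrix protein gene Sparcl1 (37.3 CPM, beside 617.3 and 677.6 CPM) followed the same pattern. Col6a5 and Col6a6, chains of collagen VI, were at 6.21 and 6.43 CPM, beside 178.9 to 208.1 CPM. Plau (urokinase), Ace (angiotensin-converting enzyme), Fndc1 and the complement gene C4b completed the 10 genes, with medians of 21.8, 19.3, 115.0 and 100.7 CPM, beside 217.7 CPM or more. Fn1 (fibronectin), one of the genes that the study names, lay between 401.6 and 919.6 CPM, beside medians of 9855 and 4588 CPM.

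**Figure D3:**
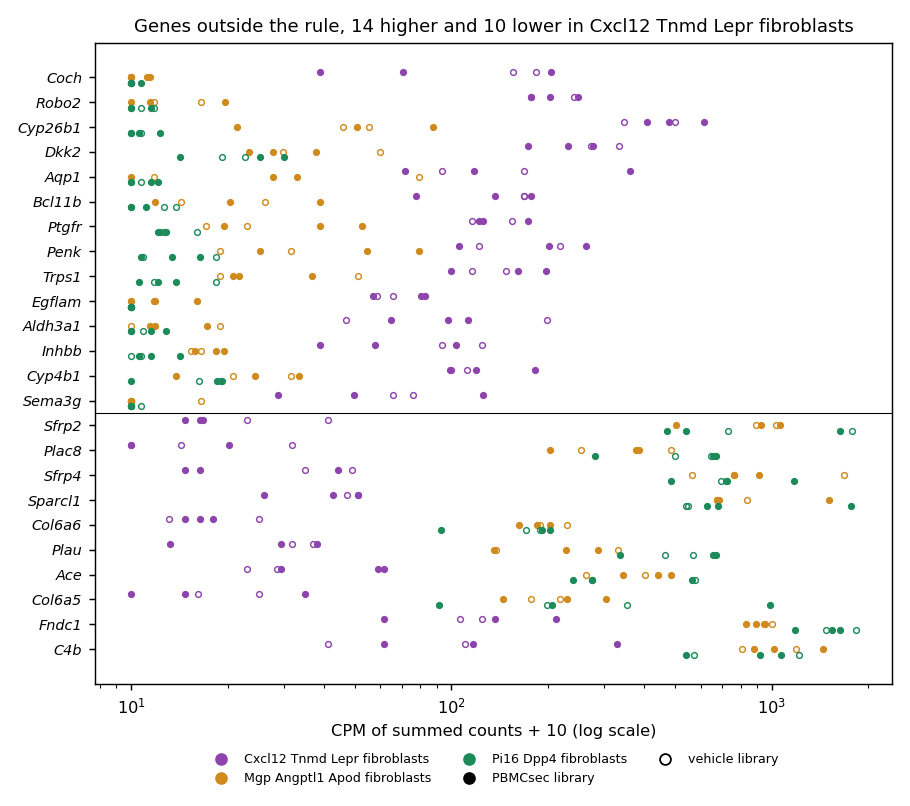
CPM of summed counts plus 10 (x axis, log scale) of 14 of the 15 genes highest (above the line) and the 10 genes lowest (below it) in Cxcl12 Tnmd Lepr FBs against both other FB groups, outside the rule. Each point is 1 of 5 libraries, filled for PBMCsec and open for vehicle, and no test was made. Robo2 and Cyp26b1 show no overlap with the other groups and little spread, whereas Coch, Aqp1 and Sema3g spread widely between libraries.

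By function, 4 of the 12 measured Slit and Robo genes were above both groups in each library, 1 was under both and 7 were neither. The 16 guidance genes of the Slit and Robo list other than Slit2, which belongs to the rule, summed to between 1373 and 1724 CPM in the cells, above Pi16 Dpp4 FBs (1135 to 1328 CPM) and Mgp Angptl1 Apod FBs (1042 to 1229 CPM) in each library. The 4 above were the ligand Slit3 (median 311.6 CPM, beside 197.4 and 213.2 CPM), the receptor Robo1 (56.2 CPM, beside 14.8 and 4.81 CPM), Dag1, dystroglycan (224.1 CPM, beside 147.2 and 158.2 CPM), and the receptor Robo2, already given among the genes of largest ratio, while the adaptor gene Nck1 was under both (65.6 CPM, beside 73.99 and 86.7 CPM). Of the Cxcl12 axis, the transcription factor Ebf1 had a median of 810.9 CPM, beside 1109 and 812.8 CPM, and the scavenger receptor Ackr3 100.7 CPM, beside 743.0 and 182.0 CPM. Ackr3 was thus under both groups in 5 of 5 libraries, while Cxcl12, which chose the cells, was above both. Of 11 measured genes of this axis outside the rule, none was above both groups in each library, 3 were under both and 8 were neither. The 14 listed genes outside the rule summed to a median of 1838 CPM, beside 2769 and 2202 CPM. Ebf3 was at 0 in 4 of the 5 libraries and at 3.21 CPM in PBMCsec library 4. Of 15 measured genes of leptin receptor signalling other than Lepr, 1 was above both groups in each library, none was under both and 14 were neither, which is near the share over all measured genes. The 1 above was the kinase Jak2 (51.4 CPM, beside 38.1 and 45.5 CPM).

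Of the 15 prostaglandin genes outside the rule with a median of at least 10 CPM in a group, 3 were above both other groups in each of the 5 libraries, 2 were under both in each and 10 were neither. The receptors Ptgfr, Ptger3 (59.0 CPM, beside 0.762 and 10.3 CPM) and Ptger4 (31.4 CPM, beside 1.81 and 10.8 CPM) were the 3 above, while Hpgd, which was also above both (median 327.8 CPM, beside 24.5 and 75.9 CPM), chose the cells. Of genes of synthesis, Ptgis, prostacyclin synthase, and Pla2g4a, a phospholipase that releases arachidonic acid (15.2 CPM, beside 89.1 and 41.2 CPM), were the 2 under both in 5 of 5 libraries, and the cyclooxygenases Ptgs2 (12.4 CPM, beside 62.5 and 43.9 CPM) and Ptgs1 (3.41 CPM, beside 31.2 and 11.4 CPM) in 4.

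By their medians over the 5 libraries, fibrillar collagen genes and Sparc set the cells apart from Pi16 Dpp4 FBs more than from Mgp Angptl1 Apod FBs. Fibrillar collagens summed to a median of 54263 CPM, beside 22568 and 50653 CPM, mostly Col1a1, Col1a2 and Col3a1, which chose the pool. Without the genes of the rule they summed to 2754 CPM, beside 1711 and 2586 CPM. In PBMCsec library 1 the latter sums were 2754 CPM, beside 2772 CPM in Pi16 Dpp4 FBs and 2387 CPM in Mgp Angptl1 Apod FBs. Basement membrane genes without Col15a1 summed to 15270 CPM, beside 7204 and 12041 CPM, above both groups in 3 of 5 libraries. Most of this sum was Sparc, a collagen-binding matricellular protein (11784 CPM, beside 3358 and 8640 CPM), and the other 23 genes summed to 3517 CPM, beside 4002 and 3402 CPM, above both groups in 1 of 5 libraries. Of 17 measured genes, 3 were above both groups in each library, 2 were under both and 12 were neither. Within them the collagen IV chains Col4a1 (896.4 CPM, beside 179.1 and 269.7 CPM) and Col4a2 (397.3 CPM, beside 65.5 and 114.5 CPM) were above both groups in 5 of 5 libraries, and the linker protein gene Nid1 (411.4 CPM, beside 1651 and 740.1 CPM) was under both. Of 19 measured elastic fibre genes outside the rule, 2 were above both groups in each library, 3 were under both and 14 were neither. Elastic fibre genes included the microfibril gene Mfap2 (456.2 CPM, beside 182.0 and 379.2 CPM), above both in 5 libraries. Mfap5 (528.1 CPM, beside 1372 and 781.0 CPM) and the crosslinking enzyme Loxl1 (348.0 CPM, beside 678.1 and 445.6 CPM) were under both in 5. Eln, elastin itself, had 818.4 CPM, beside 831.3 and 676.1 CPM.

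Other tendon genes did not all follow Tnmd. Of 15 measured tendon genes outside the rule, 2 were above both groups in each library, 2 were under both and 11 were neither. Bgn (biglycan) was above both groups in 5 of 5 libraries (1932 CPM, beside 170.8 and 1547 CPM), and so was Mkx, a tendon transcription factor (46.8 CPM, beside 0 and 7.22 CPM), but Ogn (955.9 CPM, beside 1406 and 1446 CPM) and Col14a1 (735.3 CPM, beside 2113 and 1868 CPM) were under both. The genes used to tell papillary from reticular dermis summed to between 7259 and 8681 CPM in the cells, under Pi16 Dpp4 FBs (9766 to 12725 CPM) and Mgp Angptl1 Apod FBs (10793 to 13398 CPM), and the 18 of them outside the rule were under both groups in 4 of 5 libraries by their sum. Of the 14 measured genes among these, 4 were above both groups in each library, 4 were under both and 6 were neither. Sfrp2, Sfrp4, Tnxb, a tenascin of the reticular matrix (1048 CPM, beside 1185 and 1389 CPM), and Ptgis (0 CPM, beside 86.9 and 51.8 CPM) were under both in 5 libraries. Ntn1 (215.3 CPM, beside 7.42 and 42.7 CPM) and Lrig1 (46.7 CPM, beside 11.7 and 26.5 CPM), known from papillary FBs, were above both in 5 libraries. So was Thy1 (908.3 CPM, beside 373.0 and 393.8 CPM), while Cd9 (753.4 CPM, beside 183.8 and 669.2 CPM) was above both in 3. Lpl, lipoprotein lipase, ranged from 953.6 CPM in PBMCsec library 3 to 3180 CPM in PBMCsec library 1, beside medians of 1250 and 1051 CPM. Ebf2, found in fat progenitors, was under both groups in 5 libraries (9.64 CPM, beside 163.8 and 43.3 CPM). Of 14 measured adipocyte lineage genes, none was above both groups in each library, 1 was under both and 13 were neither. Complement genes summed to 3075 CPM, beside 7610 and 5848 CPM, with C3 at 267.4 CPM, beside 2986 and 1257 CPM. Of 12 measured complement genes, 4, C3 among them, were under both groups in each library, 7 were neither, and Masp1, a protease of the lectin pathway, was the 1 above both (127.5 CPM, beside 5.71 and 60.2 CPM).

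Markers of other cell types were low in the 5 libraries. On CPM of all UMIs, the fibroblast markers summed to between 56238 and 86400. The 10 keratinocyte genes summed to between 214.6 and 634.4, with Krt10 the most abundant in each library, and the 11 macrophage and dendritic cell genes to between 69.9 and 115.5, where Ptprc was set to 0 by the rule. T and B cell genes reached at most 3.21, mast cell and basophil genes 2.26, endothelial genes 44.7, adipocyte genes 1.13 and skeletal muscle genes 3.195. Pericyte and smooth muscle genes summed to between 85.8 and 225.6, mostly Myl9, Schwann cell genes to between 51.1 and 167.4, mostly Scn7a, melanocyte genes to between 51.1 and 188.8, mostly Mitf, and erythrocyte genes to between 8.58 and 102.3. An exact two-sided permutation test of each of the 11 sums, 3 libraries against 2, gave p from 0.2 to 1, where 0.2 is the smallest p possible, so that differences could not pass.

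The second comparison asked which genes differed between PBMCsec and vehicle within these cells. Counts were summed per library and tested with edgeR in the same 5 libraries, over 5389 genes with enough counts. No gene passed an adjusted p under 0.05 (edgeR quasi-likelihood test, Benjamini-Hochberg adjustment), so the share called was 0%, and the smallest adjusted p was 0.707. At an unadjusted p under 0.05, 143 genes (2.65%) remained, 43 (0.798%) lower and 100 (1.86%) higher after PBMCsec. DESeq2 called 3 genes (0.0557%), all higher, and limma-voom called 0, with 174 at an unadjusted p under 0.05. In simulated data of this size edgeR recovered 85% of 4-fold and 21% of 2-fold changes over 5450 genes, so that differences near 2-fold would mostly have been missed. Every simulated gene had the same dispersion (spread between libraries) of 0.0567, so these shares need not hold for the real genes. In the real data, Csrnp1 (log2 fold change 3.88) and Mgp (-3.04) were not called. Without PBMCsec library 1, edgeR called 5 genes, 3 higher, among them Nr4a1 and Tnfaip6, and Mgp and Apod lower, both of which belong to the list that the cells had to score lower on, and without vehicle library 3, which leaves 1 vehicle library whose spread is then taken from the PBMCsec libraries, it called 6, Has1 higher and Myoc, Il1b, S100a8, S100a9 and Mgp lower. PBMCsec library 1 stood apart in another respect, since 8.36% of its UMIs in these cells came from the 3 removed genes, against 0.546% to 1.18% in the other 4 libraries.

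Genes among the 5 of smallest p in each direction, out of those with at least 20 CPM and no overlap of the groups, are given as not called, in CPM scaled by TMM over the tested genes. Nr4a1, an immediate early nuclear receptor, stood at 341.5, 108.3 and 173.7 CPM in PBMCsec libraries 1, 3 and 4 and at 39.8 and 20.5 CPM in vehicle libraries 3 and 4, a log2 fold change of 2.59 (SE 0.51, edgeR adjusted p = 0.707). Tnfaip6, a hyaluronan-binding protein induced by inflammation, stood at 1183, 572.4 and 514.1 CPM and at 259.2 and 109.3 CPM (log2 fold change 1.98, SE 0.45, edgeR adjusted p = 0.772). As the choice of genes without overlap required, all 3 PBMCsec libraries were above both vehicle libraries in these genes. PBMCsec library 1 was highest in both. Csrnp1, a transcription factor of early response (103.9, 27.4 and 49.6 against 4.55 and 0 CPM), and Has1, a hyaluronan synthase (128.7, 87.1 and 74.5 against 31.8 and 3.41 CPM), had log2 fold changes of 3.88 and 2.05. Without vehicle library 3 these were 7.39 and 4.65, where the first stands against a lone vehicle library at 0 and depends on the prior count. Of these genes DESeq2 called Nr4a1 (adjusted p = 0.00397), Tnfaip6 (adjusted p = 0.0189) and Csrnp1 (adjusted p = 0.0404).

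In the other direction, Mgp was lower after PBMCsec, at 14.9, 62.2 and 3.55 CPM against 152.3 and 437.0 CPM (log2 fold change -3.04, SE 0.62, edgeR adjusted p = 0.707), and the log2 fold change was -5.05 without PBMCsec library 3. Mgp is one of the genes against which the cells were chosen. Mgll, a lipase of monoglycerides, Smu1, a splicing factor, and Osr1, a transcription factor of mesenchymal progenitors, had log2 fold changes of -1.07, -1.14 and -0.87, each with an edgeR adjusted p of 0.9996. Osr1 stood at 89.1, 92.1 and 95.7 CPM after PBMCsec and at 150.1 and 191.2 CPM after vehicle.

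Of the 8 genes of the rule, none passed the test, and Cxcl12 was the only one whose groups did not overlap, which held for 16.4% of all tested genes (8.41% lower after PBMCsec). Cxcl12 stood at 3064, 1843 and 1844 CPM after PBMCsec and at 3316 and 3493 CPM after vehicle, a log2 fold change of -0.60 (SE 0.30, edgeR adjusted p = 0.9996). For Cxcl12 it was -0.88 without PBMCsec library 1 (edgeR adjusted p = 0.166) and -0.10 when the libraries with fewer than 10 of the cells were added. Lepr had a log2 fold change of -0.75 (SE 0.39, edgeR adjusted p = 0.9996), with overlapping groups, and -0.047 without vehicle library 3, the library in which Lepr was highest. The other 6 genes lay between -0.29 (Hpgd) and 0.09 (Tnmd), within 1 SE of 0, and none of them kept its sign in every alternative. Fewer transcripts per cell and a shift in which cells passed the rule cannot be told apart for these genes.

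In the edgeR fit of the 5 libraries, the lists of immediate early and inflammatory genes had the medians furthest from 0, an order that other settings changed. Neither list is independent evidence of a direction. Of 21 tested immediate early genes, which answer quickly to stress or growth signals, including tissue dissociation, 17 were higher and 4 lower after PBMCsec, with a median log2 fold change of 0.69, beside -0.00 over all tested genes. None was called by edgeR and 9 were higher at an unadjusted p under 0.05, beside 1.86% of all genes. These were Nr4a1, Ier3, Zfp36, Dusp1, Hsp90aa1, Hspa1b, Fos, Hspa1a and Junb. Fos, a subunit of the AP-1 factor, stood at 1257, 770.3 and 684.3 CPM after PBMCsec and at 573.0 and 491.6 CPM after vehicle (log2 fold change 0.75, SE 0.33, edgeR adjusted p = 0.9996). Its log2 fold change was 0.45 without PBMCsec library 1. The heat shock gene Hspa1a stood at 2500, 721.7 and 297.8 CPM against 510.5 and 368.7 CPM, so that PBMCsec library 1 was far above and PBMCsec library 4 under both vehicle libraries. Over the list of 24 genes, PBMCsec library 1 summed to 16144 CPM, and the other 4 libraries to between 5586 and 7869 CPM. In Mgp Angptl1 Apod FBs the sum was 17100 CPM in PBMCsec library 1 and 13263 CPM in PBMCsec library 3, with at most 7674 CPM elsewhere. In Pi16 Dpp4 FBs it was highest in PBMCsec library 3 (10905 CPM), with 8181.5 CPM in PBMCsec library 1. The median log2 fold change in the Cxcl12 Tnmd Lepr FBs was 0.17 with at least 5 of the 8 genes required. It was 0.23 with all libraries that held any of the cells and 0.86 without PBMCsec library 3. At the study's mitochondrial limit of 5% it was 1.05, with 10 genes higher at an unadjusted p under 0.05. Without PBMCsec library 1 it was 0.28, nearer 0 than those of the adipocyte lineage (-0.46) and fibrillar collagen lists (0.35), with 5 genes higher at an unadjusted p under 0.05 and Nr4a1 called.

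Of 16 tested inflammatory genes, 13 were higher and 3 lower, with a median of 0.91. None was called by edgeR, and 7 were higher at an unadjusted p under 0.05, namely Tnfaip6, Has1, Nfkbia, Ccl7, Ccl2, Tnfaip3 and Icam1, beside 1.86% of all tested genes. Nfkbia, the inhibitor and target of NF-kB, stood at 1198, 508.9 and 460.9 CPM after PBMCsec and at 216.0 and 320.9 CPM after vehicle (log2 fold change 1.43, SE 0.43, edgeR adjusted p = 0.9996). Every PBMCsec library was thus above both vehicle libraries, which held for 431 of the 5389 tested genes. The log2 fold change of Nfkbia was 0.89 without PBMCsec library 1. The chemokine Ccl2 stood at 499.9, 37.3 and 265.9 CPM against 81.9 and 54.6 CPM and overlapped. The list summed to 6159 CPM in PBMCsec library 1 and to between 1790 and 2594 CPM in the others. In Pi16 Dpp4 FBs it summed to 11982 and 6956 CPM in PBMCsec libraries 1 and 3, with a median over the 5 libraries of 3665 CPM. In Mgp Angptl1 Apod FBs these values were 5202 and 6774 CPM, with a median of 2176 CPM. The median log2 fold change of the list in the Cxcl12 Tnmd Lepr FBs was 0.53 without PBMCsec library 1, 1.29 without PBMCsec library 3 and 1.63 at the mitochondrial limit of 5%. The share of UMIs from the removed genes was high in PBMCsec library 1, and its part in these differences was not tested. Macrophage and dendritic cell markers summed to 94.4 CPM of all UMIs in PBMCsec library 1, inside the range of 69.9 to 115.5 CPM of the other libraries. The rule set Ptprc to 0 in these cells, which bounds this sum, and a part of leukocyte RNA in these differences was not tested.

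**Figure D4:**
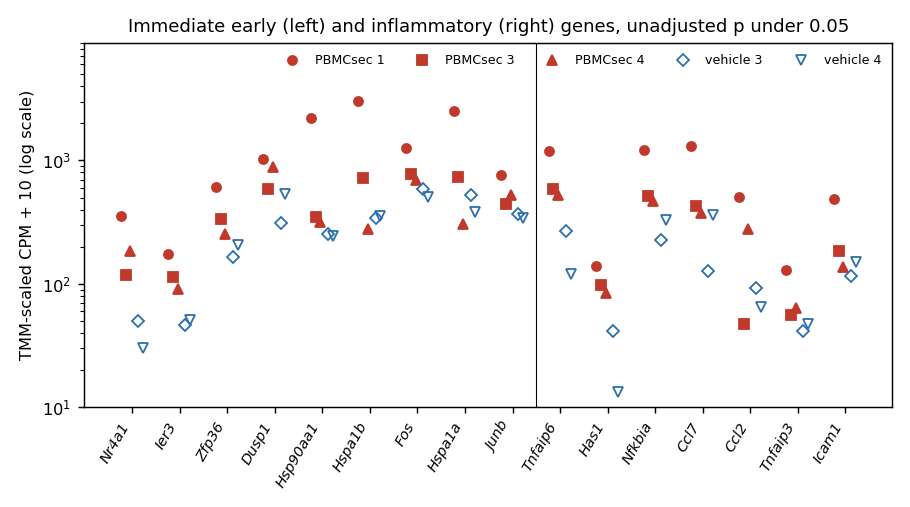
TMM-scaled CPM plus 10 (y axis, log scale) of the 9 immediate early and 7 inflammatory genes at an unadjusted edgeR p under 0.05 (x axis) in Cxcl12 Tnmd Lepr FBs. Each symbol is 1 library, filled red for PBMCsec and open blue for vehicle. PBMCsec library 1 is highest for all 16 genes, and for Hspa1a, Hspa1b, Ccl2 and Icam1 the other PBMCsec libraries overlap with vehicle.

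The remaining lists held few differences, and their counts at an unadjusted p under 0.05 stand beside 1.86% of all tested genes higher and 0.798% lower. Of the complement genes, C3, the central component, stood at 331.6, 292.4 and 351.0 CPM after PBMCsec and at 144.4 and 170.7 CPM after vehicle (log2 fold change 1.05, SE 0.30, edgeR adjusted p = 0.9996). PBMCsec library 1 did not stand out here. For C3 every PBMCsec library was above both vehicle libraries, which held for 431 of the 5389 tested genes. Masp1 had a log2 fold change of 0.89 (163.3, 139.4 and 191.5 against 92.1 and 81.9 CPM), and the list as a whole was split, with 4 of 8 genes in each direction and a median of 0.06. Of the Cxcl12 axis, 1 of 10 genes was at an unadjusted p under 0.05, the heparan sulfate proteoglycan gene Sdc4, with a log2 fold change of 0.84 (202.9, 158.0 and 191.5 against 95.5 and 109.3 CPM). None of 14 genes of leptin receptor signalling, 13 Slit and Robo genes, 9 prostaglandin genes and 14 basement membrane genes reached it, with medians of -0.10, -0.02, -0.11 and -0.04. None of these medians kept its sign when single libraries were left out. The prostaglandin median was 0.13 without PBMCsec library 1, 0.21 without PBMCsec library 4 and 0.30 without vehicle library 3, and the Slit and Robo median was 0.21 without vehicle library 3. The leptin receptor and basement membrane medians reached 0.048 and 0.020 without vehicle library 4. The complement median was -0.17 without PBMCsec library 1 and -0.093 without vehicle library 4.

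All 8 tested fibrillar collagens were slightly higher, with a median of 0.20 and values between 0.10 and 0.82, and none was at an unadjusted p under 0.05. Limma-voom gave 7 of the 8 as higher, and 5 of 8 were higher without vehicle library 3. Without PBMCsec library 3 it was 5 of 7, with a median of 0.0063. Of the 8, Col1a1, Col1a2, Col3a1 and Col11a1 belong to the rule, and the other 4 lay between 0.16 and 0.50. Of 19 elastic fibre genes, 14 were lower and 5 higher (median -0.13), but 8 of 20 lower and 12 higher (median 0.12) without vehicle library 4, and Ltbp2, which binds microfibrils, was the 1 at an unadjusted p under 0.05, with a log2 fold change of 0.91. Of 11 Adamts family genes, Adamts4, an aggrecanase, was higher at that level (1.67), with overlapping groups (19.8, 48.5 and 102.8 against 13.6 and 27.3 CPM). Adamtsl4 (-1.27) and Adamts10 (-0.75), both linked to microfibrils, were lower at that level. Of 10 adipocyte lineage genes, Cebpd and Cebpb, transcription factors of early fat differentiation that also answer to inflammation, were higher (0.95 and 1.12) and 7 were lower, and the median was -0.45. At the study's mitochondrial limit of 5%, 2 of 7 were lower and 5 higher, with a median of 0.22. Of 14 tendon genes, Tnc, a matrix glycoprotein, was higher through PBMCsec library 4 (19.8, 18.7 and 450.3 against 36.4 and 10.2 CPM, a log2 fold change of 2.51, and -0.55 without that library), and Fibin, a secreted protein, had 0.80 with overlapping groups (0.32 without vehicle library 3 and 1.30 without vehicle library 4). Of 13 papillary and reticular genes, Gpx3, an extracellular peroxidase and one of the genes of the rule, had 0.85.

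Of the 27 genes that the study names for mouse skin, 22 had enough counts, none was at an unadjusted p under 0.05 and the median was -0.03. Eln stood at 574.1, 1578 and 886.4 CPM after PBMCsec and at 859.5 and 1850 CPM after vehicle, a log2 fold change of -0.40 (SE 0.42, edgeR adjusted p = 0.9996). Txnip, an inhibitor of thioredoxin, stood at 989.9, 446.7 and 297.8 CPM against 645.8 and 515.5 CPM (-0.03, SE 0.42, edgeR adjusted p = 0.9996). For both genes the groups overlapped and the sign changed with single libraries left out. The ranges were -0.89 to 0.24 for Eln and -0.63 to 0.27 for Txnip. Fn1 (-0.55), Postn (-0.32) and Plat, the tissue plasminogen activator (0.53), also overlapped. With single libraries left out they ranged from -0.85 to -0.36, -0.65 to -0.10 and 0.30 to 0.84.

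**Figure D5:**
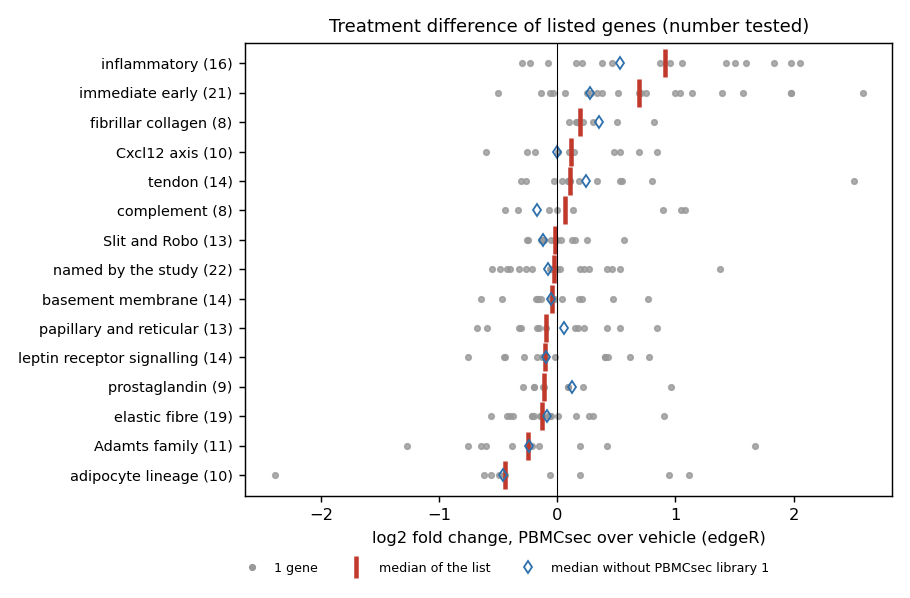
Log2 fold change of PBMCsec over vehicle by edgeR (x axis) of each tested gene of 15 lists (y axis, number of genes tested) in Cxcl12 Tnmd Lepr FBs. Grey points are genes, red bars the medians in 5 libraries and blue diamonds the medians without PBMCsec library 1. The inflammatory (0.91) and immediate early (0.69) medians are furthest from 0, and both move toward 0 without PBMCsec library 1.

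The third comparison asked whether the treatment difference in these cells was another than in the other FBs of the same libraries. The interaction of cell group and treatment, with the library as a block, called no gene against Pi16 Dpp4 FBs (0% of 9440, with 269 at an unadjusted p under 0.05) and none against Mgp Angptl1 Apod FBs (0% of 8038, with 202 at an unadjusted p under 0.05; edgeR, Benjamini-Hochberg adjustment). Against Pi16 Dpp4 FBs, the difference in log2 fold change was 1.75 for Nr4a1 (SE 0.56), 0.98 for C3 (SE 0.27) and -0.73 for Cxcl12 (SE 0.33), each with an edgeR adjusted p of 1. Cxcl12 is a gene of the rule, so its value may also carry a shift in which cells were chosen. Against Mgp Angptl1 Apod FBs it was -2.21 for Hspa1a (SE 0.46, edgeR adjusted p = 0.475) and 1.10 for Nr4a1 (SE 0.74, edgeR adjusted p = 1). No gene was thus shown to respond differently among the genes that passed the filter on low counts, with all 5 libraries. Without that filter, 2 genes were called against Pi16 Dpp4 FBs and 12 against Mgp Angptl1 Apod FBs. Against Pi16 Dpp4 FBs, 1 gene was called without PBMCsec library 1 and 1 without vehicle library 3. Against Mgp Angptl1 Apod FBs, 1 gene was called without PBMCsec library 1, 4 without PBMCsec library 3, 2 without PBMCsec library 4, 4 without vehicle library 3 and 1 without vehicle library 4.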

How the data were processed

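Droplet-based 3' single-cell libraries of mouse dorsal skin (4 after PBMCsec, 4 after vehicle) were used as deposited. The deposited matrices hold UMI counts, not normalized, for each gene in those barcodes that Cell Ranger called as cells (version 3.0.2 in the file headers and the submitters' processing notes) with mm10 as the genome and 31053 genes. Groups were taken from sample titles. The study's mitochondrial limit was 5%, and the rule applied here used 10%. Of the 349 cells, 148 exceeded 5%. No doublet caller was run. As an alternative, the 5% of barcodes with most UMIs in each library were left out. Gm42418, Gm26917 and Gm17056, which the study excluded as technical background, were left out. Members and gene lists were chosen with earlier results of these data known.

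Counts were summed over the cells of each library with at least 10 of them and given to the quasi-likelihood test of edgeR 4.0.16 in R 4.3.3, after TMM scaling and the low-count filter filterByExpr. Adjustment was by Benjamini-Hochberg over every tested gene, with calls at an adjusted p under 0.05. The study tested single cells with the Wilcoxon test, which was not used because cells of 1 library are not replicates. DESeq2 1.42.0 and limma 3.58.1 (voom) were run beside it. For shares, all 70 labellings of the 8 libraries were enumerated in an exact two-sided permutation test in Python 3.11.15 with pandas 2.3.3, scipy 1.17.1 and numpy 2.4.6. Ratios of levels between FB groups used 10 CPM added. The fits were tested on simulated counts with the same dispersion for every gene, with 4 false calls among 5450 genes.

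Named genes were the 8 genes of the rule, the 27 genes of the study, listed genes at an unadjusted p under 0.05 or among the most abundant of a list, the 5 genes of largest change called in each direction or, where fewer were called, of smallest p with at least 20 CPM and no overlap of groups, and for levels the 15 largest and 10 smallest median ratios to both other groups. Other listed genes whose levels are given were chosen after their values were seen. Positions come from GENCODE M21 (GRCm38) and promoter windows from RefSeq (GRCm38.p6), which held 7 of the 8 genes. Symbols that share reads with near copies, such as Hspa1a and Hspa1b, are uncertain. A few genes that the rule selected are not reported here.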

Additional observations from a re-analysis of the deposited data

How the results depend on the processing

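The difference in share of the FB pool (-1.27 percentage points) reversed to 0.0946 with at least 5 of the 8 genes required, to 0.249 with cells thinned to 2000 UMIs and to 1.92 in the libraries numbered 1 and 2 alone, and ranged from -5.86 to 3.74 when single libraries were left out. The difference in share of kept barcodes (0.147) was -0.508 in the libraries numbered 3 and 4 alone and ranged from -0.565 to 1.03. The count of 0 genes called between PBMCsec and vehicle became 3 with DESeq2, 37 of 14667 without the filter on low counts and 5 in the libraries numbered 3 and 4 alone, which is also the fit without PBMCsec library 1, and ranged from 0 to 6 when single libraries were left out. Genes of the lists that were called numbered 2, 14 and 2 in the same 3 settings and from 0 to 2. Without the filter, the interactions called 2 genes against Pi16 Dpp4 FBs and 12 against Mgp Angptl1 Apod FBs, and single libraries left out gave 0 to 1 and 1 to 4. The cause of these moves was not tested.

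Of 854 values for 48 named genes, 786 kept direction and side of the threshold, 29 reversed and 39 newly passed it, and 37 genes had no reversed value. The setting of at least 20 cells per library left the same 5 libraries, so its values were the same by construction. The fit of the libraries numbered 3 and 4 and the fit without PBMCsec library 1 are identical and both count. No gene was called in the main fit, so no value could lose a call. Tnmd was -0.0061 with limma-voom. Col15a1 was 0.11 in the libraries numbered 3 and 4, 0.022 at a mitochondrial limit of 5% and 0.0074 with at least 5 of the 8 genes. Mfap4 was -0.016 with limma-voom, -0.0055 scaled by total UMIs, -0.097 with at least 5 genes, -0.044 without the cells of most UMIs and -0.012 without cells that held UMIs of other cell types. Hspa1b was -0.17 and Hspa1a -0.051 with all libraries that held any of the cells, and Txnip was 0.0034 at the 5% limit. With single libraries left out, the log2 fold change ranged from -0.68 to 0.55 for Adamts18, -0.40 to 0.30 for Tnmd, -0.19 to 0.057 for Slit2, -0.37 to 0.29 for Col15a1, -0.75 to 0.45 for Hpgd, -0.45 to 0.43 for Mfap4, -0.55 to 3.905 for Tnc, -0.89 to 0.24 for Eln and -0.63 to 0.27 for Txnip. Leaving out PBMCsec library 1 lowered Hsp90aa1 to 0.45, Hspa1b to 0.57, Hspa1a to 0.23, Zfp36 to 0.74, Fos to 0.45 and Junb to 0.44. It also lowered Nfkbia to 0.89, Ccl7 to 0.83, Ccl2 to 0.92, Tnfaip3 to 0.53, Icam1 to 0.36 and Cebpb to 0.72. Without vehicle library 3, Dusp1 was 0.62, Mgll -0.66 and Adamts4 1.06, and without PBMCsec library 3 Adamtsl4 was -1.92 and Adamts10 -1.14. The median of the genes named by the study ranged from -0.20 to 0.030 with single libraries left out.

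The library numbers were fitted as a replicate block as well. Only the numbers 3 and 4 were shared between the groups of the gene test, and their deviations correlated at 0.0431 and 0.235. The deviations of vehicle libraries 3 and 4 mirror each other (correlation -1), so these values cannot settle whether the numbers pair the libraries. No label states a pairing, and the fit without the block was kept as the main one. With the block, 31 genes were called, 11 of them in the lists. The medians were 0.28 for immediate early, 0.40 for inflammatory, 0.31 for fibrillar collagen and -0.49 for adipocyte lineage genes. Col15a1 turned to 0.12 and Cxcl12 was -0.88 (edgeR adjusted p = 0.00903). Both genes chose the cells, so fewer transcripts per cell and a shift in which cells passed the rule cannot be told apart. The share of the pool kept its difference of -1.27 (exact permutation p = 0.875).

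The gene test could not be fitted in the libraries numbered 1 and 2 alone, where 1 library held at least 10 of the cells. Leaving out PBMCsec library 2 or vehicle libraries 1 or 2 changes nothing in it, since they held too few of the cells. Without vehicle library 3 or 4, the lone vehicle library is assumed to vary like the PBMCsec libraries. The libraries numbered 3 hold 69.3% of the cells and weigh most in what is described.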
